A study of Mus musculus with 9 samples.

Results

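The right ventricle of mice given a surgical fistula, which returns extra blood to the heart and so loads it with volume (VO), was compared with the right ventricle of Sham operated mice. The members are the 3 VO and 3 Sham libraries, chosen by their labels, which makes 6 of the 9 libraries of the series. All 9 came from the right ventricular myocardium of wild-type C57BL/6 mice that the labels place at postnatal day 7, and messenger RNA was read by bulk RNA sequencing. The other 3 libraries came from mice with the fistula and injections of cyclosporin A, an inhibitor of the phosphatase calcineurin, and entered the fit only to share its estimate of the spread. The age at harvest and the number of mice behind the libraries are not in the labels. The p-values therefore rest on the spread between samples that nothing shows to be separate animals, and that spread may be technical.

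As background, a volume-loaded ventricle fills with more blood at each beat, so its wall is stretched mainly in diastole, in contrast to a ventricle that pumps against raised pressure. The mouse heart in the first days of life still makes new muscle cells by division, and over the following days it turns to enlarging the cells it has and to oxidising fatty acids. Genes commonly followed in a loaded heart are the natriuretic peptides Nppa and Nppb, the myosin heavy chains Myh6 and Myh7, skeletal actin Acta1 and the calcineurin target Rcan1.

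The libraries held 12046288 to 15986747 fragments assigned to genes. Values listed for a group follow its libraries 1 to 3. FPKM divides a gene's fragments by its length and by the size of the library. The 13477 genes tested, of 54532 listed, averaged 0.5 FPKM or more over the 9 libraries. Of the ventricular muscle markers 14 of 14 averaged at least 1 FPKM over the 6 libraries. So did 13 of 13 atrial markers, so this count cannot tell ventricle from atrium. VO 3 differed from the other 8 libraries, with 11.01% of its fragments from mitochondrially encoded genes against 22.18% to 26.34%, 17003 genes above 0 against 19619 to 20479, and 1304 FPKM of Hbb-bs (a red cell globin) against 391.1 to 593.2. Sham 1 and Sham 3 were high in Myl7, the atrial myosin light chain, which was at 235, 1.097 and 269.7 FPKM in Sham against 6.06, 3.02 and 4.62 in VO. Sham 2 was the only library with the Y-linked gene Ddx3y, at 18.59 FPKM, and had 0.004007 FPKM of Xist.

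In all, 642 of 13477 genes (4.76%) passed limma's test at an adjusted p of 0.05, of which 275 (2.04%) were higher and 367 (2.72%) lower in VO. Fold changes here are differences in mean log2(FPKM + 1), VO minus Sham, a scale that understates the change of low genes. The genes that rose included factors of RNA processing, protein synthesis, DNA replication and protein turnover, such as Srsf7, Eif1a, Rfc4 and Psma3. For protein synthesis, 2 of 44 initiation factors, 1 of 20 tRNA ligases and 0 of 81 cytosolic ribosomal proteins rose. The share over all tested genes was 2.04%. Counts of list members below are to be read beside the shares of all tested genes, 2.04% higher and 2.72% lower. The genes that fell included the respiratory chain subunits Atp5k and Cox8b, the stress and hormone responsive genes Ddit4, Cebpb, Per1 and Klf9, and genes of calcium handling, elastic matrix and vessel wall such as Jph2, Eln and Nos3. Of the called genes, 239 differed by at least 2-fold, 69 higher and 170 lower. For all 642 the VO and Sham libraries did not overlap, which held for 4466 tested genes (33.1%) in all, 2180 higher (16.2%) and 2286 lower (17%). The calls sat close under the threshold, with adjusted p from 0.0347 to 0.05, and the median log2 fold change over all tested genes was 0.0028. In bulk tissue, fewer cells of a type and less RNA per cell cannot be told apart.

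**Figure D1:**
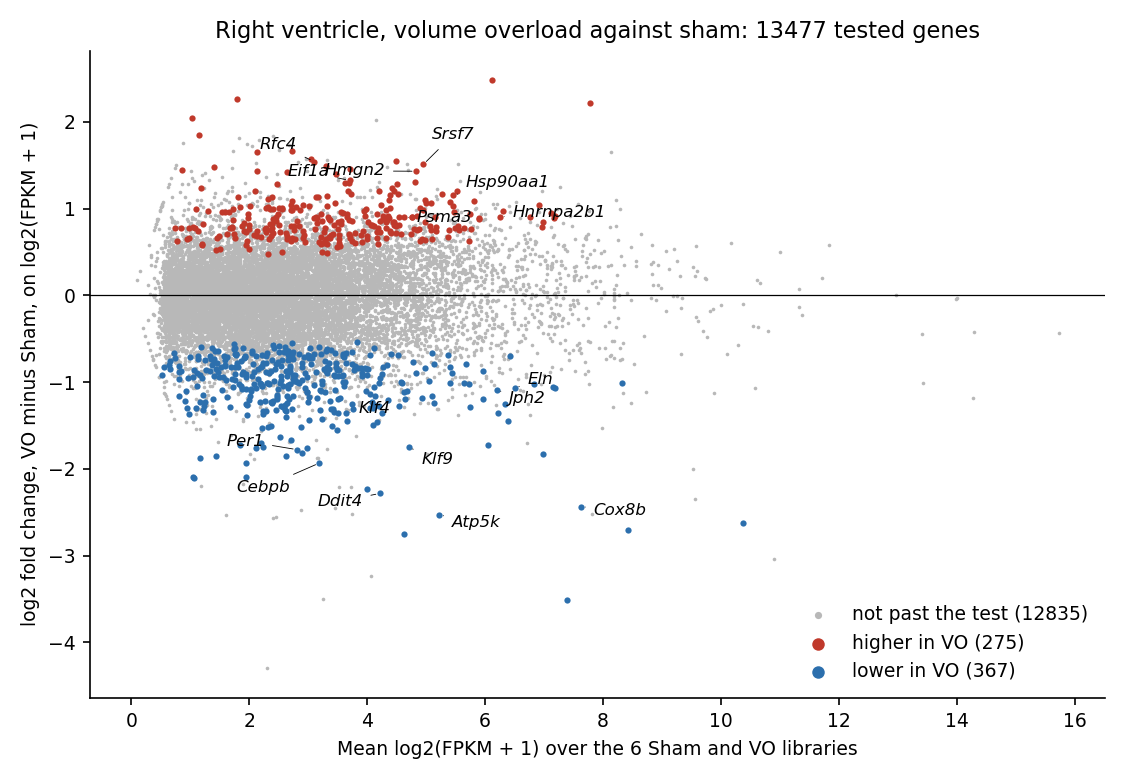
Each point is 1 of 13477 tested genes, placed by its mean level over the 6 libraries (x axis, log2(FPKM + 1)) and by its log2 fold change, VO minus Sham (y axis). Red marks the 275 genes higher and blue the 367 genes lower in VO at an adjusted p of 0.05. Among these the larger folds lie on the lower side, down to mt-Ty at -3.51, while Bmp10 at -4.30 did not pass.

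The number of calls depended on which libraries and processing were used. It was 0 after a correction for transcript GC content (with 2844 genes below 0.05 before adjustment, and 0.0662 as the lowest adjusted p in limma), 0 without Sham 3, VO 1, CsA 1 or CsA 3, 1 without Sham 1, 69 without Sham 2 and 2032 without VO 3 (941 higher, 6.98%, and 1091 lower, 8.1%). Of the 642 genes, 637 were also called when VO 3 was left out. The split of the calls, 275 higher against 367 lower as deposited, was 214 against 541 when FPKM were rescaled without mitochondrially encoded genes and 281 against 366 with median-of-ratios scaling. With voom on recovered fragments, which changes the transformation and the weights as well, it was 606 against 405.

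**Figure D2:**
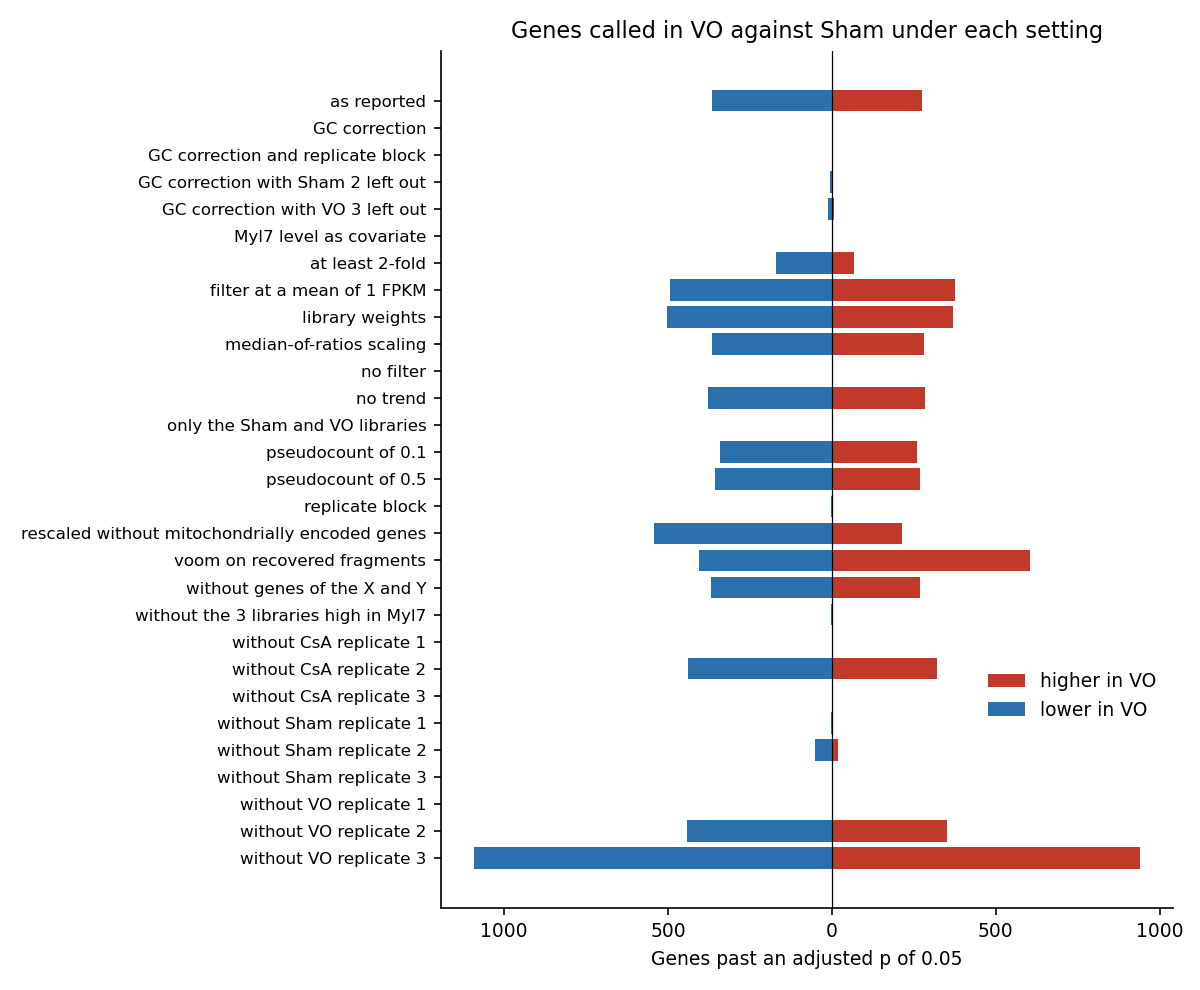
Bars give the number of genes higher (red, to the right) and lower (blue, to the left) in VO past an adjusted p of 0.05, under each setting named on the y axis. The count runs from 0, for example after GC correction, to 2032 without VO replicate 3, against 642 as reported.

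Genes that rose and genes that fell differed in base composition and in structure. The median GC content of the longest transcript was 41.95% for genes that rose, 57.31% for genes that fell and 49.37% for the other tested genes, and across 13465 genes the fold change and GC content had a Spearman correlation of -0.53, given as a description since genes are not independent. In coding sequence the medians were 46.89% and 59.34%, and in 3′ untranslated regions 36.76% and 53.11%, whereas 5′ untranslated regions had medians of 65.41% and 65.97%. The median coding sequence had 894 bases for genes that rose, 1758 for genes that fell and 1376 for the other tested genes. In the same order, 3′ untranslated regions had 1382, 803 and 1222 bases, and transcripts had 5, 8 and 7 exons. Across genes the Spearman correlations of these 3 features with the fold change were weaker than that of GC, at -0.21, 0.09 and -0.12. With the tested genes cut into 10 equal bins by GC, 108 rose and 6 fell in the lowest bin, and 1 rose and 169 fell in the highest.

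The GC trend was not equal in the VO libraries. Set against the Sham mean, the deviation of each VO library correlated with GC content at -0.68 in VO 1, -0.49 in VO 2 and -0.18 in VO 3, and the Sham libraries themselves lay at 0.19, -0.24 and 0.13. After the GC correction the median size of the 633 called genes with a GC value fell from a log2 of 0.895 to 0.599, and all 633 kept their sign. Single genes moved by unlike amounts. For example, Dbp went from -0.79 to -0.28, Jph2 from -1.09 to -0.57 and Psmc6 from 0.65 to 0.25. Atp5k changed less, from -2.53 to -2.27, and Rps19bp1 grew from 1.49 to 1.78. Whether this trend comes from the libraries or from the tissue cannot be told apart here.

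**Figure D3:**
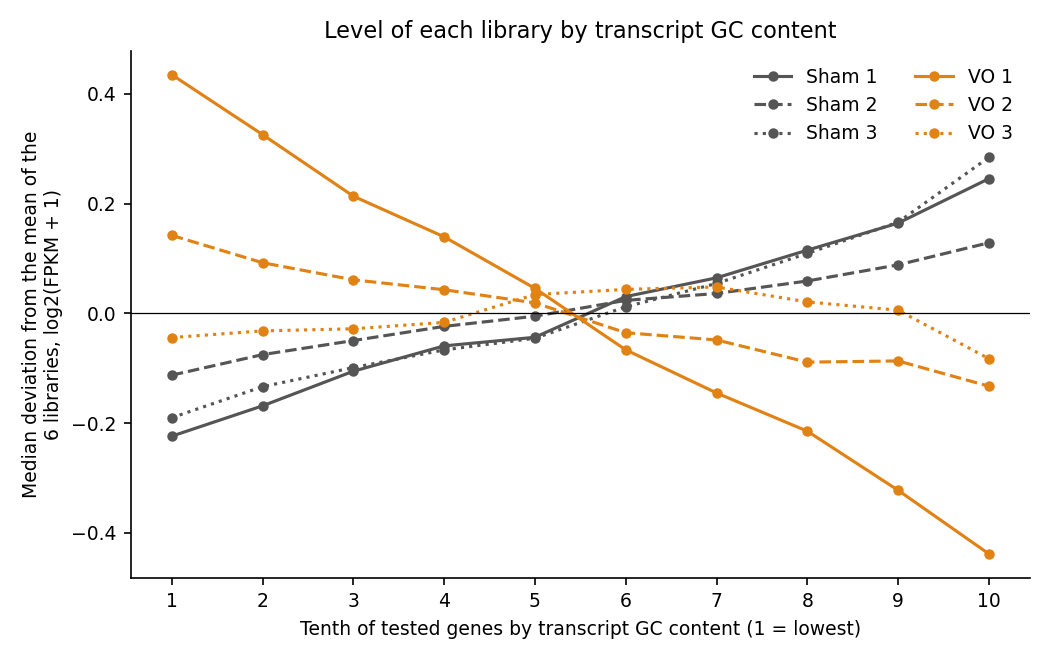
Tested genes are cut into 10 equal bins by transcript GC content (x axis), and each line gives 1 library's median deviation from the mean of the 6 libraries (y axis, log2(FPKM + 1)), grey for Sham and orange for VO. VO 1 runs from 0.44 in the lowest bin to -0.44 in the highest and VO 2 from 0.14 to -0.13, while VO 3 stays between -0.08 and 0.05.

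The promoters of Srsf7 and Cebpb are shown because these genes moved in opposite directions and differ in transcript GC content (41.6% and 67.2%), so that the sequence at the start can be set beside it. Each window runs from 250 bases before to 50 bases after the gene's start in RefSeq (GRCm38.p6), with CpG dinucleotides in capitals. Srsf7 lies at chr17:80207256-80207555 on the minus strand, with 62.67% GC and 28 CpG. Cebpb lies at chr2:167688665-167688964 on the plus strand, with 80.67% GC and 50 CpG.
Srsf7: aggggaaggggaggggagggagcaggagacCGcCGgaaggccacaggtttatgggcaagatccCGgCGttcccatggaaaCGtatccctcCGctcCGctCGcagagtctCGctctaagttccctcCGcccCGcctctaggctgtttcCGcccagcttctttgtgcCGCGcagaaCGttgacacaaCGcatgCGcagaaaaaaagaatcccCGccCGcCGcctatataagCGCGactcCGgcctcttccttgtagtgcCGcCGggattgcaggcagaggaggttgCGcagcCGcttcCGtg
Cebpb: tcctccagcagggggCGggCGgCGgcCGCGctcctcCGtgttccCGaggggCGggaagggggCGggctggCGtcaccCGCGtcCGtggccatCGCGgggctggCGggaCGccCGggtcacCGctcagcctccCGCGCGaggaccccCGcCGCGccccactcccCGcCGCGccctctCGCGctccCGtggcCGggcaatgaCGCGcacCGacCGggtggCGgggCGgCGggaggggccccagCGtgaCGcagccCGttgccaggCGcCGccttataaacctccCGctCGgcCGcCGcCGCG
Both windows hold many CpG, and that of Cebpb, like its transcript, has the higher GC content. The windows of Srsf3, which rose, and Cox8b, which fell, ran the other way. They had 68.33% GC with 42 CpG and 48.33% GC with 2 CpG. Promoters were not compared over all genes.

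Several proteins that bind and splice messenger RNA rose. SR proteins bind exons through serine and arginine rich tails and help to choose splice sites. Of 29 tested SR proteins and splicing regulators 6 rose, against 2.04% of all tested genes, and none fell. The list's median log2 fold change was 0.43, and 24 members lay above 0, against 50.4% of all tested genes. Srsf7 (ENSMUSG00000024097, chr17:80200089-80207305, minus strand) was at 14.7, 20.8 and 17.03 FPKM in Sham against 54.2, 48.4 and 51.3 in VO. Every VO library was above every Sham library, and the log2 fold change was 1.51 ± 0.25 (SE) with an adjusted p of 0.0382 in limma. Srsf3, which like Srsf7 links splicing to export of RNA from the nucleus, was at 11.3, 18.2 and 12.1 FPKM in Sham against 33.5, 32.4 and 37.9 in VO, a log2 fold change of 1.29 ± 0.26 (SE). Rbm39, Luc7l3, Srsf10 and Srsf11 rose by 0.61 to 0.99 on the log2 scale. Srsf1 (0.98, adjusted p 0.0511 in limma) missed the threshold, and Acin1 lay on the other side at -0.66 (adjusted p 0.0521).

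The hnRNP proteins, which coat new transcripts and often oppose SR proteins at splice sites, showed the same direction. Of 25 tested members 5 rose, against 2.04% of all tested genes, none fell, and the median was 0.48. Hnrnpd, known for binding AU-rich elements that speed RNA decay, was at 6.67, 8.30 and 5.16 FPKM in Sham against 12.9, 13.96 and 18.3 in VO. The highest Sham library stayed below the lowest VO library, and the log2 fold change was 1.06 ± 0.20 (SE) (adjusted p 0.0382 in limma). Hnrnpa2b1 was the most abundant of those that rose, at 55.2 ± 9.04 FPKM (SD, n = 3) in Sham and 104 ± 15.2 FPKM (SD, n = 3) in VO. Hnrnpdl, Hnrnpr and Hnrnph2 rose by 0.66 to 0.73. In the core particles of the spliceosome 2 of 40 members rose, Snrpd1 by 1.55 and Lsm8 by 1.01, but the median was 0.14 and turned to -0.06 without VO 3. Over the hnRNP list the mean deviation from Sham was 0.36, 0.38 and 0.35 in VO 1 to 3. Over the SR list it was 0.55, 0.46 and 0.19, with VO 3 near Sham 2 at 0.11. When VO 3 was left out 13 SR members rose and 1 fell, against 6.98% and 8.1% of all tested genes. Corrected for GC, the SR list had a median of 0.28 and the hnRNP list one of 0.29.

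**Figure D4:**
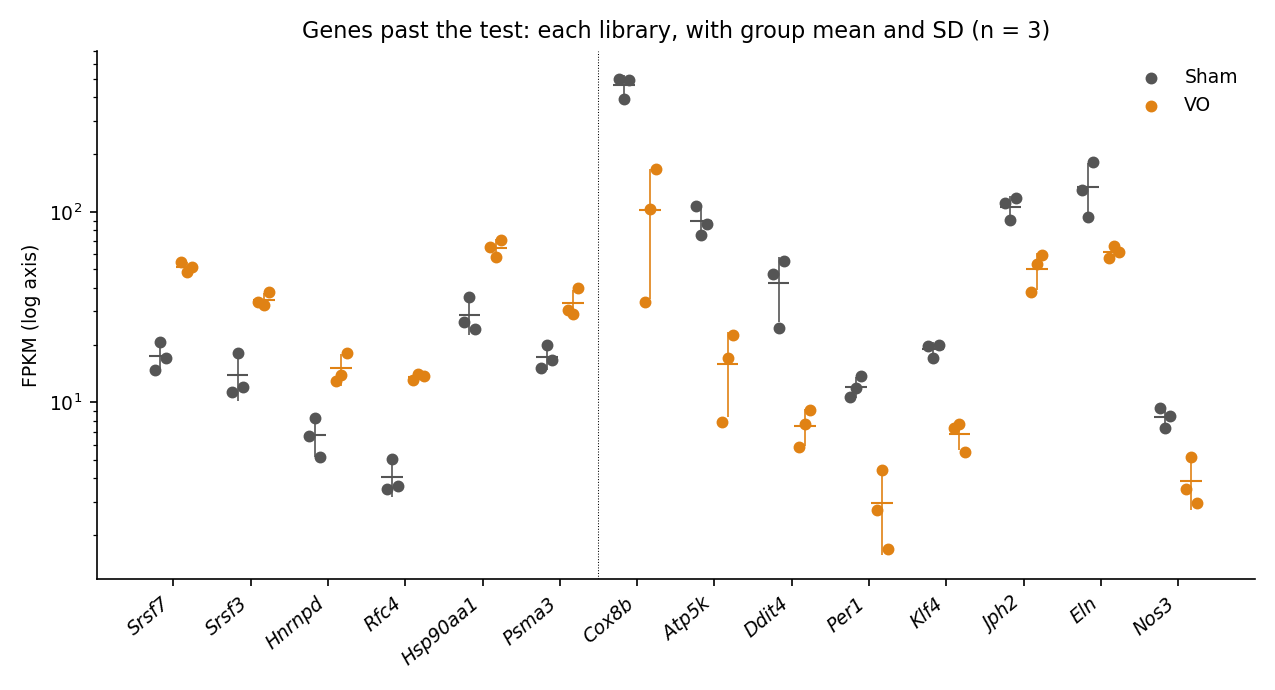
Points give FPKM (y axis, log scale) of 14 genes past the test in each of the 3 Sham (grey) and 3 VO (orange) libraries, with the group mean as a bar and the SD as a line. Genes left of the dotted line rose and genes right of it fell. No VO point overlaps a Sham point within a gene, which held for all 642 called genes and for 33.1% of all tested genes.

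Among factors of protein synthesis single members changed. Eif1a, which helps the small ribosomal subunit to scan for a start codon, was at 6.86, 8.04 and 6.86 FPKM in Sham against 19.9, 16.9 and 22.5 in VO. The groups were well separated, with a log2 fold change of 1.33 ± 0.18 (SE) (adjusted p 0.0382 in limma). Eif2s2, the beta subunit of the factor that brings the first tRNA, rose by 0.75, and 2 of 44 initiation factors rose in all, against 2.04% of all tested genes. The median of that list was 0.15, or 0.04 without VO 3. Dars, the aspartate tRNA ligase, was the 1 of 20 tRNA ligases that rose, by 0.85. Among 81 cytosolic ribosomal proteins none rose and Rpl23a fell, at 72.8, 57.9 and 59.4 FPKM in Sham against 7.04, 16.5 and 5.07 in VO. Rpl23a has many processed copies in the genome and how shared reads were handled is not stated, so its value is uncertain. The ribosomal list as a whole was split by library, with a mean deviation from Sham of -0.48 in VO 1, 0.04 in VO 2 and 0.98 in VO 3.

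Protein turnover and folding changed at single members. The proteasome degrades proteins tagged with ubiquitin, and 4 of its 40 tested subunits rose, against 2.04% of all tested genes. They were Psma3 and Psma5 of the core ring, and Psmd14 and Psmc6 of the cap. Psma3 was at 15.1, 19.9 and 16.7 FPKM in Sham against 30.6, 29.01 and 39.6 in VO, and all VO libraries were higher than all Sham libraries. Its log2 fold change was 0.90 ± 0.18 (SE), and the other 3 rose by 0.65 to 0.81. The list's mean deviation was -0.02 in VO 1 and 0.85 in VO 3, and its median of 0.37 was 0.09 without VO 3. Hsp90aa1, the inducible cytosolic chaperone, rose from 28.8 ± 6.22 FPKM (SD, n = 3) to 64.8 ± 6.81 FPKM (SD, n = 3), by 1.16 ± 0.25 (SE) on the log2 scale. Of 28 tested heat shock chaperones 1 rose and 3 fell, against 2.04% and 2.72% of all tested genes. Of these members 17 lay above 0, and the median was 0.09. Bag3, which clears damaged filamin at the Z-disc, fell. It was at 51.3, 47.5 and 52.04 FPKM in Sham against 18.3, 22.4 and 25.9 in VO. Hspb6 and Dnajb5 fell by 1.07 and 0.99 on the log2 scale.

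Genes of DNA replication lay almost all on the higher side, but few passed the test. Of 39 tested members 38 were above 0, against 50.4% of all tested genes. The median was 0.58, and Rfc4 and Orc6 rose. The mean deviation from Sham was 0.33, 0.91 and 0.50 in VO 1 to 3 against 0.30 in Sham 2, and the median was 0.24 without the 3 libraries high in Myl7 (Sham 1, Sham 3 and CsA 3). Wherever it is used below, that setting leaves Sham 2, the only library with Ddx3y, alone in its group. Rfc4 (ENSMUSG00000022881, chr16:23113943-23127737, minus strand), a subunit of the clamp loader, was at 3.49, 5.07 and 3.62 FPKM in Sham against 13.1, 14.01 and 13.8 in VO. The VO values were tightly grouped and above every Sham value, with a log2 fold change of 1.54 ± 0.24 (SE) (adjusted p 0.0382 in limma). Orc6, of the complex that marks replication origins, rose by 0.80, and Pole4, a polymerase epsilon subunit, rose by 1.21. Pcna, the sliding clamp, missed the threshold with 13.9, 21.7 and 15.1 FPKM in Sham against 34.4, 49.4 and 33.6 in VO (adjusted p 0.0532 in limma).

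Mitosis and cytokinesis genes had the highest median of the lists described here after that of neutrophil markers, 0.74. Of 39 members 38 lay above 0, against 50.4% of all tested genes, yet none passed the test. Without the 3 libraries high in Myl7, which leaves Sham 2, the only library with Ddx3y, alone in its group, the median was 0.20. The spread among Sham libraries was wide over this list, with Sham 2 at 0.51 and Sham 3 at -0.48 about their mean, so that VO 3 at 0.48 fell within it. Mki67, present only in dividing cells, was at 3.79, 6.70 and 1.25 FPKM in Sham against 6.28, 12.4 and 4.55 in VO, and its groups overlapped. Cenph, an inner kinetochore protein outside the list, rose with 0.269, 0.766 and 0.433 FPKM in Sham against 2.46, 2.35 and 2.67 in VO. Among chromatin proteins Hmgn2, which loosens nucleosome contacts, and Anp32e, a chaperone of the histone H2A.Z, rose by 1.43 and 0.75. The pseudogene Hmgn2-ps1 rose by 1.46, so fragments may be shared between it and Hmgn2. The linker histone H1fx fell by 0.95, but its fold change was -0.05 after the GC correction. H19, an imprinted RNA that is high in the fetal heart, was at 78.3, 62.3 and 57.9 FPKM in Sham against 34.03, 44.4 and 42.2 in VO, below Sham in every VO library, and did not pass (adjusted p 0.0511 in limma).

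Nuclear genes of the respiratory chain gave some of the largest falls. Cox8b (ENSMUSG00000025488, chr7:140898945-140900446, minus strand), the heart and muscle form of a cytochrome c oxidase subunit, was at 501, 391 and 495 FPKM in Sham against 33.8, 104 and 167 in VO. The groups did not overlap, and the log2 fold change was -2.44 ± 0.52 (SE) with an adjusted p of 0.0408 in limma. Atp5k, a small subunit of ATP synthase, was at 107, 75.6 and 86.8 FPKM in Sham against 7.84, 16.99 and 22.6 in VO, a log2 fold change of -2.53 ± 0.40 (SE). Atp5o fell by 1.73 and Ndufb8 of complex I fell by 1.28. Few other subunits passed, since 1 of 37 complex I members and 3 of 41 members of complexes III, IV and ATP synthase fell. Over all tested genes 2.72% fell.

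The whole respiratory chain did not move as a block. Over complexes III, IV and ATP synthase the mean deviation from Sham was -0.94 in VO 1 and -0.52 in VO 2 but 0.51 in VO 3, and over complex I it was -0.73, -0.42 and 0.67. Without VO 3, 16 complex I members and 19 members of the other list passed as lower, against 8.1% of all tested genes. The medians were then -0.59 and -0.50 in place of -0.10 and -0.13. Cox6b1 shows the pattern, at 491, 481 and 328 FPKM in Sham against 69.7, 169 and 273 in VO, and did not pass (adjusted p 0.0675 in limma). VO 3 is also the library with less mitochondrially encoded RNA, for example mt-Cytb at 28020.0, 29455 and 31742 FPKM in Sham against 16901, 20675 and 6462 in VO, and what part its other differences have in these values was not tested.

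Among fuel genes, the carrier and the kinases at the entry of glucose fell. Slc2a4, the insulin-responsive glucose carrier of muscle, was at 61.1, 48.98 and 66.3 FPKM in Sham against 31.6, 35.2 and 26.7 in VO. All VO values were lower, and the log2 fold change was -0.89 ± 0.19 (SE) (adjusted p 0.0408 in limma). Hk1 and Hk2, the hexokinases that trap glucose in the cell, fell by 0.81 and 0.68. Slc16a1, a carrier of lactate and other monocarboxylates, rose with 89.5, 95.1 and 96.98 FPKM in Sham against 171, 134 and 190.0 in VO. Over 29 genes of glucose use 1 rose and 3 fell. Esrra, the nuclear receptor that drives genes of oxidative metabolism, fell from 34.9 ± 1.53 FPKM (SD, n = 3) to 20.4 ± 4.37 FPKM (SD, n = 3) and was the 1 of 34 fatty acid oxidation genes past the test. Bckdha, of branched-chain amino acid breakdown, fell from 13.6 ± 2.60 FPKM (SD, n = 3) to 3.36 ± 0.966 FPKM (SD, n = 3). Lipe, hormone-sensitive lipase, fell by 1.23.

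Several stress and hormone responsive genes fell in VO. Ddit4 (ENSMUSG00000020108, chr10:59949669-59951834, minus strand), an inhibitor of mTORC1 induced by glucocorticoids, low oxygen and stress, was at 47.1, 24.5 and 55.2 FPKM in Sham against 5.79, 7.73 and 9.06 in VO. The groups did not overlap although the Sham values ranged over more than 2-fold, and the log2 fold change was -2.28 ± 0.42 (SE) (adjusted p 0.0382 in limma). Cebpb, a stress and inflammation responsive transcription factor, was at 17.3, 14.5 and 18.98 FPKM in Sham against 1.75, 4.64 and 5.55 in VO, a log2 fold change of -1.93 ± 0.33 (SE). Chac1 and Slc3a2, targets of ATF4, fell by 1.22 and 0.74. Of 27 genes of this response 4 fell and none rose past the test. The median was -0.32, or -0.06 after the GC correction. Of the 27 members 9 lay above 0 and 18 below, while 50.4% of all tested genes lay above 0. The groups did not overlap for 5 members on the higher side and 9 on the lower side. Psat1 was the highest member, with a log2 fold change of 1.15 and no overlap, but it did not pass (adjusted p 0.0732 in limma).

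The glucocorticoid list showed a low median, -0.94. Of 23 members 20 lay below 0, while 50.4% of all tested genes lay above 0. Those that fell past the test were 4, namely Ddit4, Per1, Klf9 and Nfkbia, against 2.72% of all tested genes. Without the 3 libraries high in Myl7 the median was -0.28, a value that rests on Sham 2 alone in its group. Klf9, a Kruppel-like factor induced by the glucocorticoid receptor, was at 50.4, 32.2 and 63.2 FPKM in Sham against 19.02, 16.2 and 7.31 in VO. Nfkbia, the inhibitor of NF-kappa B, was at 28.02, 21.97 and 27.99 FPKM in Sham against 8.11, 11.1 and 11.6 in VO, a log2 fold change of -1.26 ± 0.20 (SE). Within the list Sham 2 lay at -0.34 and Sham 3 at 0.30 about the Sham mean, and VO 1 to 3 lay at -0.84, -0.82 and -0.64. Angptl4, a lipase inhibitor that glucocorticoids and fasting also induce, was on the other side at 10.5, 25.6 and 11.5 FPKM in Sham against 30.1, 32.5 and 73.2 in VO and did not pass (adjusted p 0.0846 in limma). Klf4 (ENSMUSG00000003032, chr4:55527143-55532466, minus strand), a factor of endothelium and smooth muscle, had the smallest unadjusted p of the genes named here, with 19.7, 17.1 and 20.1 FPKM in Sham against 7.33, 7.68 and 5.48 in VO. The 6 values fell in 2 tight groups, with a log2 fold change of -1.36 ± 0.16 (SE) and an adjusted p of 0.0347 in limma.

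Among immediate early genes 2 of 26 fell, against 2.72% of all tested genes. Csrnp1 was at 3.16, 2.73 and 3.91 FPKM in Sham against 0.958, 1.07 and 0.952 in VO. Zfp36, which destabilises cytokine messenger RNAs, fell by 1.32. Of 18 clock genes the light and glucocorticoid responsive Per1 and the output factor Dbp fell. Per1 was at 10.6, 11.9 and 13.7 FPKM in Sham against 2.72, 4.43 and 1.70 in VO, a log2 fold change of -1.78 ± 0.24 (SE) (adjusted p 0.0382 in limma), and Dbp fell by 0.79. After the GC correction the fold changes were -1.37 for Per1 and -0.28 for Dbp.

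The promoters of Per1 and Klf4 are shown because both genes fell and both windows hold an E-box, the letters CACGTG that clock factors can bind. Windows run from 250 bases before to 50 bases after the start in RefSeq (GRCm38.p6), with the E-box in capitals. It begins 166 bases before the start of Per1 (chr11:69098699-69098998, plus strand, 63.33% GC) and 182 bases before that of Klf4 (chr4:55532426-55532725, minus strand, 74.33% GC).
Per1: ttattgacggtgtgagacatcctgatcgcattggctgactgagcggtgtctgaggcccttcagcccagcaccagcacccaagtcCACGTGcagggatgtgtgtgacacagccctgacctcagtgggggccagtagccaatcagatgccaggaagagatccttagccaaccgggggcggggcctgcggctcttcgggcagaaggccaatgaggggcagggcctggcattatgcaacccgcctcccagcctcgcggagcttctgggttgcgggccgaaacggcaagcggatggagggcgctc
Klf4: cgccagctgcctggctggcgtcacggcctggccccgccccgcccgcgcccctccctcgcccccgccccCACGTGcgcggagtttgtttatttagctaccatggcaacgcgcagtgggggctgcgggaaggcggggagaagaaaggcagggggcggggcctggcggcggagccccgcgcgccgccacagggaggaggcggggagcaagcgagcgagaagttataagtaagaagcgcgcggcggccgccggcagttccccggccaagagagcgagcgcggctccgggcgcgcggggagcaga
The letters read the same on both strands and occur in 2349 of 32851 such windows (7.15%). A second RefSeq start of Per1 has no E-box in its window, and neither do the windows of Dbp, Klf9 and Ddit4. A match is a description of the letters and no evidence of binding.

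**Figure D5:**
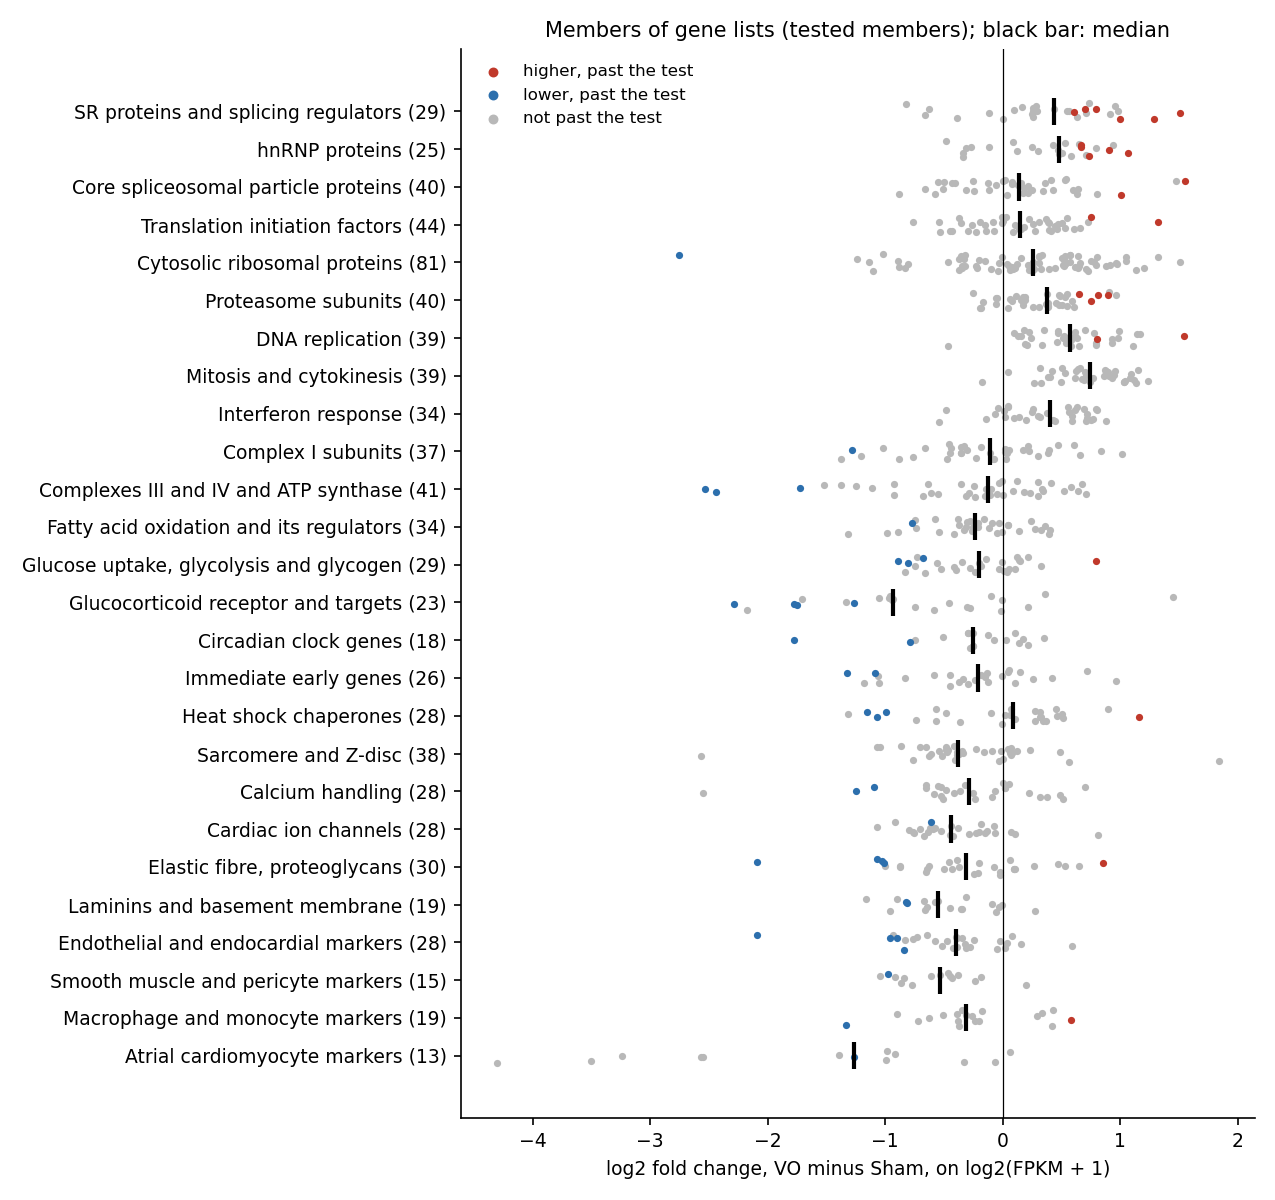
Each point is the log2 fold change, VO minus Sham (x axis), of 1 tested member of the gene list named on the y axis, with the number tested in brackets, and black bars mark medians. Red and blue points passed the test, and medians run from 0.74 for mitosis to -1.26 for atrial markers.

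A pair of genes of the muscle cell's calcium store fell, while the natriuretic peptides, myosins and skeletal actin did not pass. Jph2 (ENSMUSG00000017817, chr2:163336242-163397993, minus strand), which ties the sarcoplasmic reticulum to the cell membrane, was at 112, 90.3 and 118 FPKM in Sham against 37.8, 52.9 and 59.2 in VO. The groups did not overlap, with a log2 fold change of -1.09 ± 0.22 (SE) (adjusted p 0.0396 in limma). Hrc, a calcium-binding protein inside the reticulum, was at 138, 120.1 and 116 FPKM in Sham against 48.8, 47.3 and 59.7 in VO. Its log2 fold change was -1.25 ± 0.20 (SE). Jph2 and Hrc were the 2 of 28 calcium-handling genes that fell, against 2.72% of all tested genes. Abcc8, a regulator of ATP-sensitive potassium channels, was the 1 of 28 ion channel genes past the test, at -0.61. Lrrc10, a muscle-specific repeat protein, fell by 1.29, and Furin, a protease that cleaves natriuretic peptide precursors, fell by 1.32.

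None of 38 sarcomere genes passed the test. Myh6, the main myosin heavy chain of the mature mouse ventricle, was at 2576, 2048 and 2097 FPKM in Sham against 905, 1205 and 1088 in VO. All 3 VO values were lower, but the adjusted p was 0.0501 in limma. Nppb was at 31.9, 49.9 and 21.4 FPKM in Sham against 27.2, 74.1 and 99.6 in VO. Acta1 was at 43.6, 64.98 and 33.4 FPKM in Sham against 30.2, 39.02 and 91.2 in VO, and in both genes the groups overlapped. Acta1 changed sign in 6 settings, among them -0.40 without VO 3. Nppa, abundant in atrium, was at 151, 0.914 and 114 FPKM in Sham against 2.90, 1.43 and 1.41 in VO, which followed Myl7 in the Sham libraries. Of 22 genes of calcineurin signalling 1 passed: Ppp3cb, a catalytic subunit, rose from 11.9 ± 1.35 FPKM (SD, n = 3) to 21.8 ± 4.46 FPKM (SD, n = 3). Rcan1 was at 23.6, 27.4 and 21.5 FPKM in Sham against 28.5, 29.2 and 49.4 in VO, higher in each VO library but not past the test (adjusted p 0.200 in limma).

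The matrix genes that fell included members of elastic tissue and basement membrane. Eln (ENSMUSG00000029675, chr5:134702593-134747323, minus strand), elastin, was at 130.2, 93.9 and 182 FPKM in Sham against 57.5, 66.5 and 61.6 in VO. No VO value reached the lowest Sham value, and the log2 fold change was -1.07 ± 0.23 (SE) (adjusted p 0.0408 in limma). Podn, a secreted leucine-rich proteoglycan, was at 11.3, 2.34 and 11.2 FPKM in Sham against 0.794, 1.13 and 0.693 in VO, and Sham 2 was much lower than the other Sham libraries. Mfap4 and Ltbp4, partners of elastic fibres, fell by 1.01 and 1.03, and 4 of 30 genes of this list fell in all. Lum, a proteoglycan of collagen fibrils, was the 1 that rose, with 90.98, 95.9 and 93.8 FPKM in Sham against 178, 151 and 182 in VO. Col18a1 and Lamb2 of the basement membrane fell by 0.82 and 0.82. Of 19 members of that list 18 lay below 0, while 50.4% of all tested genes lay above 0. The list's median was -0.55 (-0.34 after the GC correction and -0.29 without the libraries high in Myl7). Sod3, the extracellular superoxide dismutase, was at 10.9, 6.46 and 17.1 FPKM in Sham against 1.68, 2.74 and 2.41 in VO, a log2 fold change of -1.85 ± 0.30 (SE).

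In the vessel wall, Nos3 and Tie1, the endothelial nitric oxide synthase and a receptor kinase, fell with Plvap, which forms the diaphragms of capillary pores. Nos3 was at 9.34, 7.33 and 8.46 FPKM in Sham against 3.51, 5.18 and 2.95 in VO. Tie1 was at 44.01, 37.2 and 42.5 FPKM in Sham against 21.1, 19.96 and 27.2 in VO. The VO values of both genes were below all Sham values, and the log2 fold changes were -0.96 ± 0.20 (SE) and -0.84 ± 0.19 (SE). Plvap fell by 0.90, and 4 of 28 endothelial markers fell in all, against 2.72% of all tested genes. The list's median was -0.40 (-0.24 without the libraries high in Myl7). The fourth, Ccl21a, has near-identical copies and was listed at 0 in all 3 VO libraries and at 5.80, 4.29 and 1.15 FPKM in Sham 1 to 3. Myh11, the smooth muscle myosin, fell from 8.79 ± 2.07 FPKM (SD, n = 3) to 3.97 ± 0.998 FPKM (SD, n = 3), the 1 of 15 smooth muscle and pericyte markers past the test.

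Atrial markers had the lowest median, -1.26, with summed levels of 811, 124 and 842 FPKM in Sham against 153, 128 and 141 in VO. Tbx5, a transcription factor higher in atrium than in the right ventricle, was the 1 of 13 past the test, at 10.8, 5.48 and 10.2 FPKM in Sham against 4.03, 3.63 and 1.64 in VO. Sham 2, the Sham library with little Myl7, was also the lowest in Tbx5. Without the 3 libraries high in Myl7 the list's median was 0.20, the fold change of Tbx5 was -0.71, and those of Eln, Podn and Ddit4 were -0.60, -0.84 and -1.60 in place of -1.07, -2.09 and -2.28. The comparison then rests on 1 Sham library, Sham 2, which is also the only library with the Y-linked Ddx3y. Differences tied to that and differences tied to atrial RNA cannot be told apart there. What part atrial RNA has in the fall of the other genes was not tested beyond this.

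Few immune genes passed the test. Cd74, the chain that escorts class II antigen molecules, was at 8.65, 7.04 and 11.1 FPKM in Sham against 2.54, 1.98 and 4.53 in VO, a log2 fold change of -1.34 ± 0.26 (SE). Fcgr1, a high-affinity antibody receptor of macrophages, rose with 0.847, 0.889 and 0.864 FPKM in Sham against 1.58, 1.86 and 1.97 in VO, and these were the 2 of 19 macrophage and monocyte markers past the test. The neutrophil gene Stfa1, a member of a cluster of near copies, rose with 0.193, 0.101 and 0 FPKM in Sham against 1.86, 1.31 and 3.02 in VO. Of 34 interferon response genes 29 were above 0, against 50.4% of all tested genes, with a median of 0.40, and none passed. The list's mean deviation from Sham was -0.13, 0.49 and 0.70 in VO 1 to 3, and its median was 0.17 without VO 3. Ifit2 had the smallest p among them, with 3.40, 4.45 and 4.03 FPKM in Sham against 7.05, 9.40 and 6.65 in VO (adjusted p 0.0748 in limma).

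Other protein-coding genes among the largest changes belong to no list. Sub1, a coactivator of RNA polymerase II, and Phlda1 rose by 1.23 and 1.301. Eid1, an inhibitor of the acetyltransferase p300, was at 27.7, 33.4 and 27.01 FPKM in Sham against 72.2, 49.1 and 90.8 in VO, with every VO library higher. Rps19bp1, which binds a ribosomal protein, was at 5.25, 4.65 and 4.77 FPKM in Sham against 11.8, 12.6 and 24.7 in VO, with VO 3 highest. Yipf5 and Igip rose by 1.204 and 1.202. Map1lc3a, a protein of the autophagosome membrane, was at 256, 236 and 224 FPKM in Sham against 36.5, 92.7 and 84.9 in VO, a log2 fold change of -1.83 ± 0.37 (SE). Scand1, the zinc finger protein Zfp771 and Rtn4rl2, a receptor related to the Nogo receptor, fell by 2.24, 1.82 and 1.85.

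Outside the protein-coding class, 60 of 1684 tested genes were called, 30 higher and 30 lower, against 4.76% of all tested genes. The mitochondrially encoded tRNAs, singled out after their values were seen, held the extremes of the called genes in both directions. Of 19 tested mitochondrial tRNAs mt-Th and mt-Ts2 rose and mt-Ty, mt-Tc and mt-Tn fell. mt-Ty was at 571, 362 and 889 FPKM in Sham against 128, 60.2 and 14.7 in VO. mt-Tc was at 2923, 2567 and 4702 FPKM in Sham against 1106, 599 and 228 in VO, lowest in VO 3 like mt-Ty. mt-Th, in contrast, was at 31.7, 36.5 and 19.6 FPKM in Sham against 178, 91.4 and 265 in VO. VO 3 was again the most extreme, as it was for mt-Ts2 with 94.1, 159.7 and 69.3 FPKM in Sham against 502, 247 and 856 in VO. Whether these fragments come from mature tRNAs or from longer precursors was not tested.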

How the data were processed

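Bulk RNA sequencing libraries of right ventricular myocardium were prepared with NEBNext Ultra reagents from 1 µg of RNA each, extracted in Trizol (per the labels' protocols). Values are FPKM for every gene in every library, computed and deposited by the authors. Per the submitters' processing notes, which give no role or order, the tools include GATK 3.7, DESeq2 1.20.0, featureCounts 1.5.0-p3, StringTie 1.3.3b and HISAT2 2.0.5, on the builds mm10 and GRCm38. The annotation release and strand setting: not given in the sources used here.

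All 9 libraries (Sham, VO and CsA, 3 each, grouped by their labels) entered 1 limma 3.58.1 fit (R 4.3.3) on log2(FPKM + 1), with a mean-variance trend, no covariate and Benjamini-Hochberg adjustment over the 13477 genes whose mean reached 0.5 FPKM. The test was two-sided with a threshold of 0.05. FPKM steps gave whole fragments within 0.1 for 100% of values, which set the depths and fed voom. The number of fragments limits the precision of low genes, and duplicates made by PCR are counted. No pair of replicates agreed within sampling noise, since chi-square over genes, per degree of freedom, was 13.88 to 24.14 in Sham and 26.6, 182.7 and 134 in VO, the latter pair of values both with VO 3. 

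GC content came from the longest GENCODE M21 transcript, and the correction removed a loess trend (span 0.3, degree 1) on GC from each library, leaving out mitochondrially encoded genes. Coding sequence and untranslated regions were read from the longest protein-coding transcript of 11793 genes. Promoter windows are RefSeq's and were matched by symbol.

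The members, the 47 gene lists and the rule for named genes were chosen with earlier results of these data known. The rule took genes past the test that were protein coding, reached 2 FPKM in the mean of the higher group and did not overlap (the 15 highest and 15 lowest by fold), every list member past the test, up to 3 others per list with the smallest p, and fixed load markers; some genes it takes are not reported here. Lists are described by counts and medians, with no test. The scripts were tested on simulated data. Alternatives were other pseudocounts, filters, scalings, weights and fits, a replicate block, the GC correction and each library left out; no library was left out of the reported values.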

Additional observations from a re-analysis of the deposited data

How the results depend on the processing

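The count of called genes (642, with 275 higher and 367 lower) was 0 after GC correction, 0 after GC correction with the replicate block, 0 with the Myl7 level as covariate, 0 with no filter (4599 of 26573 genes below 0.05 before adjustment, and 0.0588 as the lowest adjusted p in limma) and 0 when the fit held Sham and VO alone (3357 below 0.05 before adjustment). It was 4 (0 higher, 4 lower) with GC correction and Sham 2 left out, 19 (6 and 13) with GC correction and VO 3 left out, 3 (0 and 3) without the 3 libraries high in Myl7, 1011 (606 and 405) with voom, and 239 (69 and 170) at 2-fold or more. Leaving out 1 library at a time gave 0 to 2032 genes, 0 to 941 higher and 0 to 1091 lower; with 2 libraries left in a group its spread is taken from all groups. The other settings gave 600 to 874 genes. The causes were not tested. The settings on Myl7 and the GC corrections without 1 library were chosen after seeing the data.

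With the replicate number as a block, 1 gene was called (0 higher, 1 lower). Same-numbered Sham and VO libraries deviated with correlations of -0.041, 0.061 and -0.039, and differently numbered ones with correlations from -0.096 to 0.121. These values show no pairing by number, but they cannot exclude one.

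Sign changes among the 120 genes printed with values here were H1fx at 0.042 (GC correction without Sham 2) and 0.025 (GC correction without VO 3), Nppa at 0.57 and Myl7 at 1.37 when the libraries high in Myl7 were left out, Myh7 at 0.095 (GC correction without VO 3), and Acta1 at -0.0088 (GC correction without VO 3), -0.15 (library weights), -0.018 (rescaled without mitochondrially encoded genes), -0.16 (without Sham 3) and -0.44 (without the libraries high in Myl7). Leaving out 1 library at a time put Acta1 between -0.40 (without VO 3) and 0.38 (without VO 1). Other genes that the naming rule takes, Hcn2 and Sox10 among them, also changed sign in some settings and are not given here. The median of 32 of 47 lists kept its sign in every setting. The edgeR test on recovered fragments was not run.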

Other observations

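Several genes of heart development and vessels lay just beyond the threshold, with no overlap between the groups, and were not described above. Gata4, a core transcription factor of heart muscle, was at 26.9, 30.02 and 26.4 FPKM in Sham against 14.4, 20.8 and 9.88 in VO (log2 fold change -0.90 ± 0.23 (SE), adjusted p 0.0511 in limma). Mef2d, a calcium-responsive factor of muscle genes, was at 32.4, 34.3 and 35.7 FPKM in Sham against 18.4, 21.5 and 8.79 in VO (adjusted p 0.0520 in limma). In contrast Hopx, a regulator of myocyte maturation, was higher at 84.9, 127 and 103 FPKM in Sham against 194, 156 and 300.4 in VO (adjusted p 0.0547 in limma). Of the vessel wall, Cdh5, the endothelial cadherin, was at 114, 101 and 93.03 FPKM in Sham against 57.7, 74.01 and 53.7 in VO, Pdgfrb of pericytes at 31.6, 22.98 and 27.3 FPKM in Sham against 14.7, 16.1 and 11.3 in VO, the flow-induced factor Klf2 at 55.9, 49.1 and 67.3 FPKM in Sham against 13.2, 21.7 and 38.6 in VO and the basement membrane proteoglycan Hspg2 at 93.1, 74.9 and 99.7 FPKM in Sham against 45.2, 62.1 and 32.7 in VO. These 4 had log2 fold changes of -0.73, -0.92, -1.31 and -0.96 and adjusted p from 0.0511 to 0.0532 in limma.

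Some values set VO 3 apart within its group. Rps27a, a ubiquitin and ribosomal fusion gene with processed copies, was at 29.1, 30.7 and 21.2 FPKM in Sham against 62.9, 46.2 and 161 in VO, and S100a8 of neutrophils at 0.296, 1.76 and 0.889 FPKM in Sham against 3.35, 4.02 and 12.5 in VO. Both were highest in VO 3 and neither passed the test (adjusted p 0.0539 and 0.0998 in limma). Mb, myoglobin, was at 1718, 1405 and 1129.6 FPKM in Sham against 451, 553 and 1043 in VO, with VO 3 nearest to Sham. Mrps34, of the mitochondrial ribosome, fell with 12.6, 10.3 and 9.31 FPKM in Sham against 0.760, 4.17 and 4.44 in VO, the 1 of 77 mitochondrial ribosomal genes past the test. Fbxo32, an atrophy ubiquitin ligase and glucocorticoid target, was at 18.8, 16.1 and 20.2 FPKM in Sham against 11.05, 6.36 and 10.04 in VO (adjusted p 0.0535 in limma).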
